A study of Homo sapiens with 15 samples.

Results

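The genes described are LAMA3, LAMB3, ITGA2, ITGA3, ITGA6, ITGB4, ITGB6, COL17A1 and LAD1, taken by their symbols from the deposited table. All 9 were present among its 19612 gene symbols. Epithelial cells rest on a basement membrane, and hemidesmosomes rivet them to it. In a hemidesmosome, integrin α6β4 and collagen XVII span the membrane, hold laminin-332 outside the cell, and connect to keratin filaments inside it. LAMA3 and LAMB3 encode chains of laminin-332, and in lung and other epithelia its genes are known to respond to growth factor and AP-1 signaling.

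The cells were H1975, an established human lung adenocarcinoma line, and H1975–OR, an osimertinib-resistant subline of it. Both carry the EGFR alleles T790M and L858R. H1975–OR was obtained by growing H1975 in osimertinib, an EGFR inhibitor, and was then kept in 500 nM of it, so that its vehicle-treated cells had been taken off the drug for the experiment. There were 5 groups of 3 libraries. Samples 1a to 1c were H1975 and Samples 2a to 2c H1975–OR, each with vehicle only. H1975–OR received 100 nM 1,25(OH)2D3 in Samples 3a to 3c, 500 nM osimertinib in Samples 4a to 4c, and the same doses of the pair together in Samples 5a to 5c. 1,25(OH)2D3 is the hormonally active form of vitamin D3. Every group was held for 96 h in medium with charcoal-stripped serum, with treatment repeated at 48 and 92 h. The study took RNA from 3 separate passages, and the sample titles give the letters a to c without naming a passage. The model is thus 1 parental line and 1 subline derived from it, and no second resistant line was sequenced here.

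Total RNA was sequenced, and the deposited values are estimated read counts per gene. The counts summed to between 4378030 and 6140120 per library, with a median of 4974785. Levels are given as CPM after TMM scaling of the libraries, and 3 counts, used as the floor of detection, correspond to between 0.477 and 0.707 CPM. These floors cover counting error only. Sample 3a, whose profile stood apart, was left out of the main fits and entered only an alternative, and its values are given beside those of Samples 3b and 3c. CYP24A1, the vitamin D catabolic enzyme used as a check on the 1,25(OH)2D3 label, lay between 3.31 and 8.58 CPM in vehicle-treated H1975–OR and averaged 1168 CPM in Samples 3b and 3c. The lung transcription factor NKX2-1 was present in every library at 31.9 to 98.9 CPM, as was KRT18 at 1776 to 2917 CPM, while the surfactant-related markers NAPSA and SFTPB did not exceed 2.25 CPM. The T cell marker CD3E was at 0 in every library, and the 3 basal markers KRT5, KRT14 and TP63 together did not exceed 6.30 CPM.

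LAD1 and ITGB6 had no counts in the vehicle-treated resistant line, and LAMB3 and COL17A1 were lower in it than in H1975. LAMB3 was the one gene of the 9 called higher with 1,25(OH)2D3, a call that was lost in some alternative fits. The sequence immediately upstream of the transcription start is shown for these 4 genes, because they carry the differences described below. The windows hold 250 bases before the start and come from RefSeq on GRCh38.p14. RefSeq windows matched 7 of the 9 genes, 10 windows in all, and ITGA3 and ITGB4 are named only. Capitals mark matches to either of 2 short motifs searched on both strands. The first is the E-box, CAGGTG on one strand and CACCTG on the other, which ZEB and SNAI factors are known to bind. The second is TGANTCA, the AP-1 motif. The LAD1 window is chr1:201399325-201399574, that of ITGB6 is chr2:160200273-160200522, and that of COL17A1 is chr10:104085881-104086130. LAMB3 has 3 windows, of which window 1, chr1:209652426-209652675, and window 3, chr1:209651375-209651624, are printed, and windows of one gene can overlap. All 5 sequences lie on the minus strand and are written 5′ to 3′.
LAD1: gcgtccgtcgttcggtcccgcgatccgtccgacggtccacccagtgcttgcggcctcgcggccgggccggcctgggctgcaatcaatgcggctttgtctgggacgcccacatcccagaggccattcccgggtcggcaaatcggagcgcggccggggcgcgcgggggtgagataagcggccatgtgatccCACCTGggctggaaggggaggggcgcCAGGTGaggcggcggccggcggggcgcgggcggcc
ITGB6: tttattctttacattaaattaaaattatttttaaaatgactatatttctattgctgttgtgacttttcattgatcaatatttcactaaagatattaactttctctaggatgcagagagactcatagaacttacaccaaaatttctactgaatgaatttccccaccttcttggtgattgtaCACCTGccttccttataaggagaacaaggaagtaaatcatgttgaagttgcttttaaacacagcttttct
LAMB3 window 1: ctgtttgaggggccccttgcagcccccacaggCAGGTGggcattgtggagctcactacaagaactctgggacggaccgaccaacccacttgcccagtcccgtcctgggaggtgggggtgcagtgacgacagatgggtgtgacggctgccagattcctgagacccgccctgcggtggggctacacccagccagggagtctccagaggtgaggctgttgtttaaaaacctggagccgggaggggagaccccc
LAMB3 window 3: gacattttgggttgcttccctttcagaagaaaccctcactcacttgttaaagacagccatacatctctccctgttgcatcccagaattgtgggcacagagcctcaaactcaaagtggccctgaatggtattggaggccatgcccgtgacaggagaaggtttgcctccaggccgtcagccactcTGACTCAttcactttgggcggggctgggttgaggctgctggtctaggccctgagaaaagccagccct
COL17A1: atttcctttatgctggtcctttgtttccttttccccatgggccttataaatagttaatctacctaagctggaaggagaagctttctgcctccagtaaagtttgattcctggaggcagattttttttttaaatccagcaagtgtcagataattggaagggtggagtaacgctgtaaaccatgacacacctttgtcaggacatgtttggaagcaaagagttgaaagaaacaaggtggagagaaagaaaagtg

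LAD1 held an E-box at both −61 and −35, counted from the start to the first base of the match, and ITGB6 held one at −70. LAMB3 held an E-box at −218 of its first window and an AP-1 match at −67 of window 3. COL17A1 held neither motif. Of the windows not printed, that of LAMA3 held an E-box at −73 and AP-1 matches at −125 and −69, the last of which overlaps the E-box, ITGA6 held E-boxes at −136 and −46 of its first window, and ITGA2 held neither. The E-box was thus present in 5 of the 10 windows and in 17.5% of all 35116 RefSeq windows of the same length, and the AP-1 motif in 2 of the 10 and in 6.57% of all. Windows 1 and 2 of LAMB3 overlap, so the 10 are not independent. The bases that follow the first ITGA6 window were found in no GENCODE transcript of that gene. The LAMA3 window, chr18:23872770-23873019, lies inside the span of the gene given below, as do the LAD1 window and LAMB3 window 3. Such a window need not precede the start of the canonical transcript. The vitamin D receptor motif of the DR3 type was found in none of the 10 windows and in 0.0655% of all. A match is a description of the letters and not of binding, and the windows say nothing of sites farther away.

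To see how the basal adhesion apparatus differed between the resistant and the parental line, vehicle-treated H1975–OR was compared with vehicle-treated H1975. LAD1, ITGB6, LAMB3 and COL17A1 were lower in H1975–OR, and none of the 9 genes was higher, by the quasi-likelihood test of edgeR, with Benjamini-Hochberg adjusted p-values over 12513 genes and a threshold of 0.05. Over all genes tested, 10.3% were called lower and 9.89% higher. The groups did not overlap for 5 of the 9, those 4 and LAMA3, all lower in H1975–OR, where 20.3% of all genes were lower without overlap. The median log2 fold change of the 9 genes was −2.09, beside 0.01 over all genes. LAD1 and ITGB6 passed the filter on low counts only through the H1975 libraries, so both could only come out lower in this comparison. The counts and the median above include both, so they are not evidence of a shared direction. The 9 genes were also chosen with earlier results of these data known, so nothing here tests them as a set. These are bulk libraries, so fewer cells that express a gene and less of its RNA per cell cannot be told apart.

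LAD1 encodes ladinin-1, a basement membrane zone protein of epithelia. Its counts were 225, 409 and 484 in Samples 1a to 1c, which is 38.9, 74.5 and 98.4 CPM. It had 0 counts in each of the 3 vehicle-treated H1975–OR libraries. Against the floor of 3 counts per library, LAD1 was at least 117-fold lower in H1975–OR (adjusted p = 0.000557 by edgeR). The gene lies at chr1:201380833-201399915 on the minus strand of GRCh38, with 10 exons in its canonical GENCODE transcript.

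ITGB6 encodes the integrin β6 chain, which pairs with αv on epithelial cells and binds the latent form of TGFβ. Its counts were 73, 273 and 323 in the H1975 libraries (12.6, 49.7 and 65.7 CPM). All 12 H1975–OR libraries, treated or not, had 0 counts. Against the floor, ITGB6 was at least 70.7-fold lower in vehicle-treated H1975–OR (adjusted p = 0.00487 by edgeR). Its partner ITGAV did not pass the test and lay between 192 and 261 CPM in the same 6 libraries. ITGB6 lies at chr2:160099667-160200313, minus strand, with 15 exons.

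LAMB3 encodes the β3 chain of laminin-332. It was measured at 390, 507 and 516 CPM in H1975 and at 78.1, 108 and 107 CPM in vehicle-treated H1975–OR, so the resistant line held 20.7% of the H1975 mean. The log2 fold change was −2.26 (SE 0.163, adjusted p = 0.000151 by edgeR). The 3 libraries of each group lay close together and far from the other group. LAMB3 lies at chr1:209614870-209652425, minus strand, with 23 exons.

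COL17A1 encodes collagen XVII, the transmembrane collagen of hemidesmosomes. It was measured at 20.2, 24.6 and 31.5 CPM in H1975 and at 3.68, 6.61 and 7.32 CPM in vehicle-treated H1975–OR. Its log2 fold change was −2.09 (SE 0.343, adjusted p = 0.00467 by edgeR), nearly that of LAMB3, and the groups did not overlap. COL17A1 lies at chr10:104031286-104085880, minus strand, with 56 exons.

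LAMA3 encodes the α3 chain, which carries the part of laminin-332 that integrins bind. It was measured at 18.5, 48.8 and 33.9 CPM in H1975 and at 11.03, 12.4 and 0 CPM in vehicle-treated H1975–OR. The groups did not overlap, but the spread was wide and the log2 fold change of −2.10 (SE 0.898) did not pass the test (adjusted p = 0.135 by edgeR). The 0 in Sample 2c was an estimate of 0.298 reads before rounding. Kallisto divides reads among the transcripts they fit, and whether this value is a failed estimate was not tested. LAMA3 spans chr18:23689453-23956222 on the plus strand, with 75 exons.

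For both chains of the α6β4 integrin, which anchors the hemidesmosome to laminin-332, no change was called. ITGB4 was measured at 68.5, 55.5 and 90.0 CPM in H1975 and at 32.3, 96.5 and 98.6 CPM in vehicle-treated H1975–OR, and the groups overlapped (log2 fold change 0.10, SE 0.374, adjusted p = 0.873 by edgeR). Sample 2a lay below every H1975 library and Samples 2b and 2c above them. ITGA6 was measured at 212, 199 and 137 CPM in H1975 and at 101, 131 and 152 CPM in vehicle-treated H1975–OR (log2 fold change −0.50, SE 0.203, adjusted p = 0.116 by edgeR). ITGB4 lies at chr17:75721328-75757818 and ITGA6 at chr2:172427354-172506459, both on the plus strand. On the opposite strand, GALK1 overlaps ITGB4, lncRNAs overlap ITGA6, ITGA2 and LAD1, and a processed pseudogene overlaps LAMA3. Whether strand was used in counting is not given in the sources used here, so reads of such partners may not be told apart. On the same strand, lncRNAs overlap LAD1 and ITGB6, and miRNAs overlap LAMB3 and COL17A1.

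The remaining 2 chains pair with β1, ITGA2 in the collagen receptor α2β1 and ITGA3 in α3β1, a receptor for laminin-332. ITGA2 was measured at 84.8, 176 and 221 CPM in H1975 and at 46.0, 70.8 and 98.6 CPM in vehicle-treated H1975–OR. Sample 2c lay above Sample 1a, and the log2 fold change of −1.14 (SE 0.379) did not pass the test (adjusted p = 0.0658 by edgeR). ITGA3 was low in every library, at 0, 6.92 and 9.96 CPM in H1975 and at 0.613, 3.51 and 8.09 CPM in vehicle-treated H1975–OR (log2 fold change −0.44, SE 1.21, adjusted p = 0.833 by edgeR). The 0 in Sample 1a was an estimate of 1.11e-07 reads, and its status was not tested either. ITGA2 lies at chr5:52989340-53094779 and ITGA3 at chr17:50055968-50090481, both on the plus strand.

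**Figure D1:**
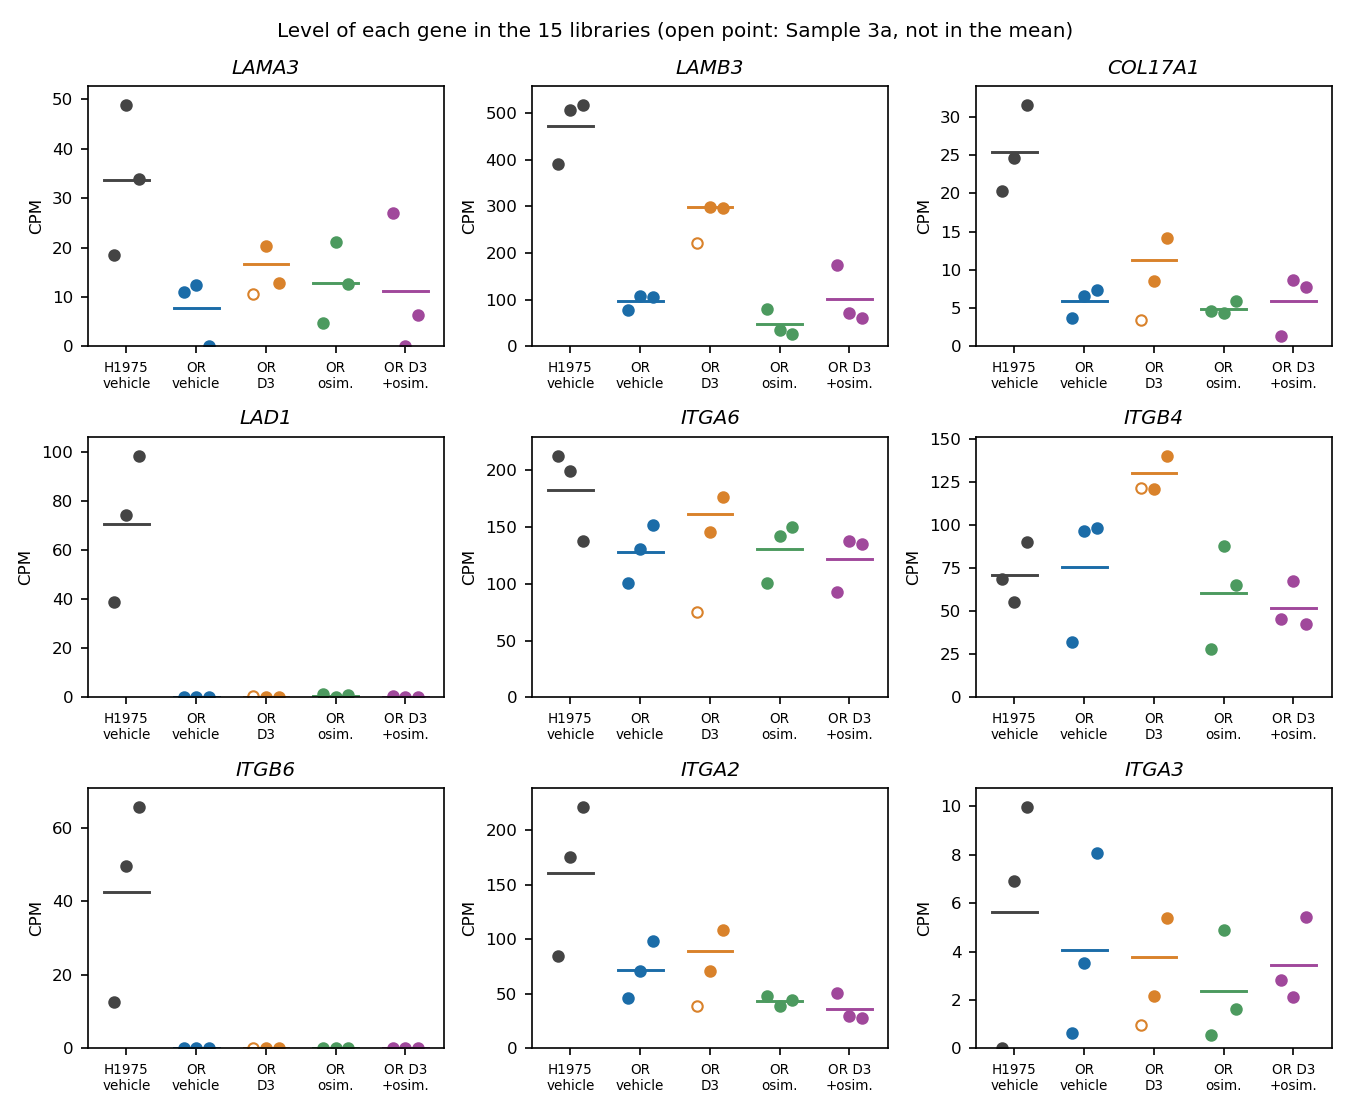
Level of each of the 9 genes in CPM (y axis, from 0) in the 5 groups of 3 libraries (x axis), where OR is H1975–OR, D3 is 1,25(OH)2D3 and osim. is osimertinib. Points are libraries, horizontal lines are means without Sample 3a (open point), and points of LAD1 lie at 38.9 to 98.4 CPM in H1975 and at or below 1.33 CPM in every H1975–OR library.

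Cell type markers also differed between the groups, in both directions. EPCAM, an epithelial cell surface protein, lay between 74.9 and 207 CPM in H1975 and between 9.29 and 12.7 CPM in vehicle-treated H1975–OR. The keratin KRT7 was likewise lower in H1975–OR without overlap, at 1002 to 1932 against 452 to 573 CPM, while KRT18 was higher without overlap, at 1776 to 2044 against 2333 to 2550 CPM. The summed level of the 7 epithelial and lung markers overlapped between the groups, at 3456 to 4388 CPM in H1975 and 3174 to 3711 CPM in vehicle-treated H1975–OR. Of the 4 fibroblast markers, whose sum was 13.8 to 18.2 CPM in H1975 and 16.8 to 38.0 CPM in vehicle-treated H1975–OR, PDGFRB lay between 2.00 and 5.36 CPM in H1975 and between 15.02 and 29.2 CPM in vehicle-treated H1975–OR. COL1A2, a fibrillar collagen chain, went the other way, at 10.4 to 14.02 CPM in H1975 and 0.385 to 2.25 CPM in vehicle-treated H1975–OR. The macrophage marker CD68 (23.8 to 38.6 against 12.8 to 16.2 CPM) and the endothelial marker PECAM1 (4.07 to 4.19 against 0.204 to 1.86 CPM) were also lower in H1975–OR without overlap. Another endothelial marker, CDH5, overlapped, at 2.08 to 4.88 CPM in H1975 and 4.04 to 7.15 CPM in vehicle-treated H1975–OR. The sum of the 3 endothelial markers overlapped too (6.40 to 9.15 against 6.35 to 8.17 CPM). The part of these markers in the results was not tested.

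Other genes of the adhesion apparatus were read from 4 lists. Among 6 hemidesmosome partners, 4 were tested, of which DST rose. DST, which encodes a plakin linker and also has isoforms outside hemidesmosomes, was 0.86 higher on the log2 scale (SE 0.162, adjusted p = 0.00818 by edgeR). KRT5 and KRT14, keratins that basal cells anchor to hemidesmosomes, had at most 2 counts in any library.

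Among the other laminin and basement membrane genes, the called ones were higher in H1975–OR. Of 20, 12 were tested, 5 rose and none fell by edgeR, where 9.89% of all genes were called higher and 10.3% lower. Their median log2 fold change was 1.22 beside 0.01 for all genes. At an unadjusted p under 0.05, 8 were higher and 0 lower, where 17.5% of all genes were higher and 17% lower. COL4A5 (18, 5 and 2 counts in Samples 1a to 1c), COL4A3 (10, 2 and 8) and LAMA1 (0 in each) passed the filter through H1975–OR libraries. These could hardly come out lower, and the counts and the median include them, so they are not evidence of a shared direction. LAMB1, the β chain of laminins outside the laminin-332 type, was measured at 2.60, 2.19 and 1.83 CPM in H1975 and at 5.11, 37.8 and 34.1 CPM in vehicle-treated H1975–OR (log2 fold change 3.54, SE 0.792, adjusted p = 0.0159 by edgeR). Sample 2a lay much nearer H1975 than Samples 2b and 2c did. COL4A5 (log2 fold change 3.13), COL4A4 (2.29) and the perlecan gene HSPG2 (1.10) also rose, as did LAMB2. LAMB3 exceeded LAMB1 by 6.41 to 7.08 on the log2(CPM + 2) scale in the H1975 libraries and by 1.46 to 3.49 in vehicle-treated H1975–OR, a difference not corrected for gene length.

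Of 21 other integrin chains, 10 were tested. ITGA1, of the collagen receptor α1β1, rose by 1.32 on the log2 scale (SE 0.361), while the leukocyte chain ITGB2 (−2.92, SE 0.75) and the fibronectin receptor chain ITGA5 (−1.89, SE 0.212) were lower. ITGB1, which pairs with ITGA2, ITGA3 and ITGA6, did not pass the test and lay between 977 and 1723 CPM in the same 6 libraries. Of 19 adaptors that link integrins to actin, 16 were tested, and FERMT2 (0.52) and ILK (0.42) rose. In all, these lists held 11 called genes, of which ITGB2 and ITGA5 were lower. The lists had 4, 12, 10 and 16 tested genes, and 20.1% of all genes were called in either direction.

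**Figure D2:**
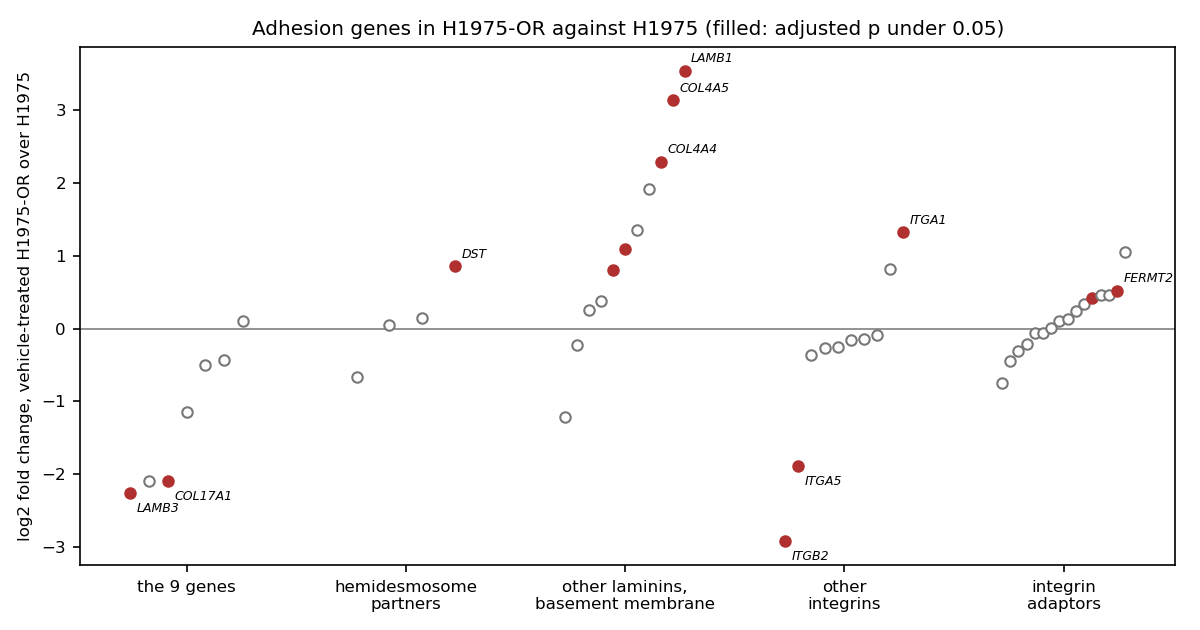
Log2 fold change (y axis) of the tested genes of the 9 and of the 4 lists (x axis) in vehicle-treated H1975–OR over vehicle-treated H1975, each point a gene, filled where the adjusted p of edgeR was under 0.05. LAMB3 and COL17A1 lie below −2 and LAMB1, COL4A5 and COL4A4 above 2, while genes with 3 counts or fewer in every library of a group, LAD1 and ITGB6 among them, are not drawn.

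The genes whose levels moved most like those of the called members were sought over the 14 libraries without Sample 3a, as the root-mean-square difference between log2(CPM + 2) profiles, each centred on its mean. For ITGB6 these were GRHL2 at 0.193, ST14 at 0.308 and MACC1 at 0.318. For LAD1 they were ESRP1 at 0.24, GRHL2 at 0.32 and ST14 at 0.387. GRHL2, a grainyhead-like transcription factor, was measured at 21.8, 51.3 and 63.8 CPM in H1975 and at no more than 0.401 CPM in any H1975–OR library. ESRP1, an RNA splicing regulator, was measured at 36.9, 72.6 and 95.3 CPM in H1975 and at no more than 0.205 CPM in H1975–OR. In both, as in LAD1 and ITGB6, Sample 1a was the lowest H1975 library. This follows from the choice of the closest profiles and is not a separate likeness. Sample 1a was also the lowest H1975 library for LAMB3 and COL17A1, but not for ITGA6 or ITGB4. The profiles closest to LAMB3 were those of CALB2 (0.463), FAM83A (0.48) and NT5E (0.48), and those closest to COL17A1 were MST1R (0.388), SMIM3 (0.401) and FANCG (0.41). The distances of ITGB6 and LAD1 cannot be set against these. ITGB6 and GRHL2 were at no more than 0.401 CPM in every H1975–OR library, where their profiles can hardly differ, and LAD1 and ESRP1 were near the floor there too. LAMB3 and COL17A1 were above the floor in every library.

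To see which of the genes responded to the vitamin D hormone, H1975–OR given 1,25(OH)2D3 was compared with vehicle-treated H1975–OR, without Sample 3a. LAMB3 rose, and no other of the 9 genes passed the test. The vehicle-treated H1975–OR libraries enter this comparison and the one with H1975, so the 2 are not independent. Over all genes 0.152% were called higher and 0% lower. The groups did not overlap for LAMA3, LAMB3, ITGB4 and COL17A1, all higher with 1,25(OH)2D3, and 13.1% of all genes were higher without overlap.

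LAMB3 was measured at 298 and 297 CPM in Samples 3b and 3c, beside 78.1, 108 and 107 CPM with vehicle. Its log2 fold change was 1.61 (SE 0.173, adjusted p = 0.0119 by edgeR). Both treated libraries lay above every vehicle-treated one, as did Sample 3a at 220 CPM, and with Sample 3a kept in the log2 fold change was 1.48 (adjusted p = 0.0295 by edgeR). The mean with 1,25(OH)2D3 was 63.2% of the H1975 mean, and the groups did not overlap. LAMB3 is one of the genes the study selected on these same libraries, so the call is not independent evidence of its direction. The call was lost without Sample 3b (adjusted p = 0.0746) or 3c (0.0859), each leaving 1 treated library that is assumed to vary like the other groups, and in a fit of the 11 H1975–OR libraries (0.603).

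COL17A1 was measured at 8.58 and 14.1 CPM with 1,25(OH)2D3, both above the 3 vehicle values (log2 fold change 0.95, SE 0.375, adjusted p = 0.611 by edgeR). Sample 3a, at 3.49 CPM, lay below all of them. ITGB4 was measured at 121 and 140 CPM, and at 122 CPM in Sample 3a, each above the highest vehicle value of 98.6 CPM (log2 fold change 0.79, SE 0.41, adjusted p = 0.745 by edgeR). Its partner ITGA6, at 146 and 176 CPM, overlapped with vehicle, and Sample 3a, at 75.4 CPM, lay below every vehicle library. LAMA3 was at 20.4 and 12.8 CPM, the lower of which lay just above the highest vehicle value of 12.4 CPM, and Sample 3a, at 10.6 CPM, lay inside the vehicle range. ITGA2 was at 71.0 and 109 CPM, and at 38.9 CPM in Sample 3a, below the lowest vehicle value of 46.0 CPM. ITGA3 was at 2.15 and 5.38 CPM, and at 0.953 CPM in Sample 3a. None of these differences exceeded the spread between libraries by the test. LAD1 and ITGB6 stayed at the floor, with at most 3 counts of LAD1 and 0 of ITGB6 in Samples 3a to 3c. None of the 4 lists held a called gene by edgeR. At an unadjusted p under 0.05, 2 of the 4 tested hemidesmosome partners and 3 of the 12 other laminin and basement membrane genes were higher, and no gene of the lists was lower, where 3.64% of all genes were higher and 3.63% lower at that level.

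**Figure D3:**
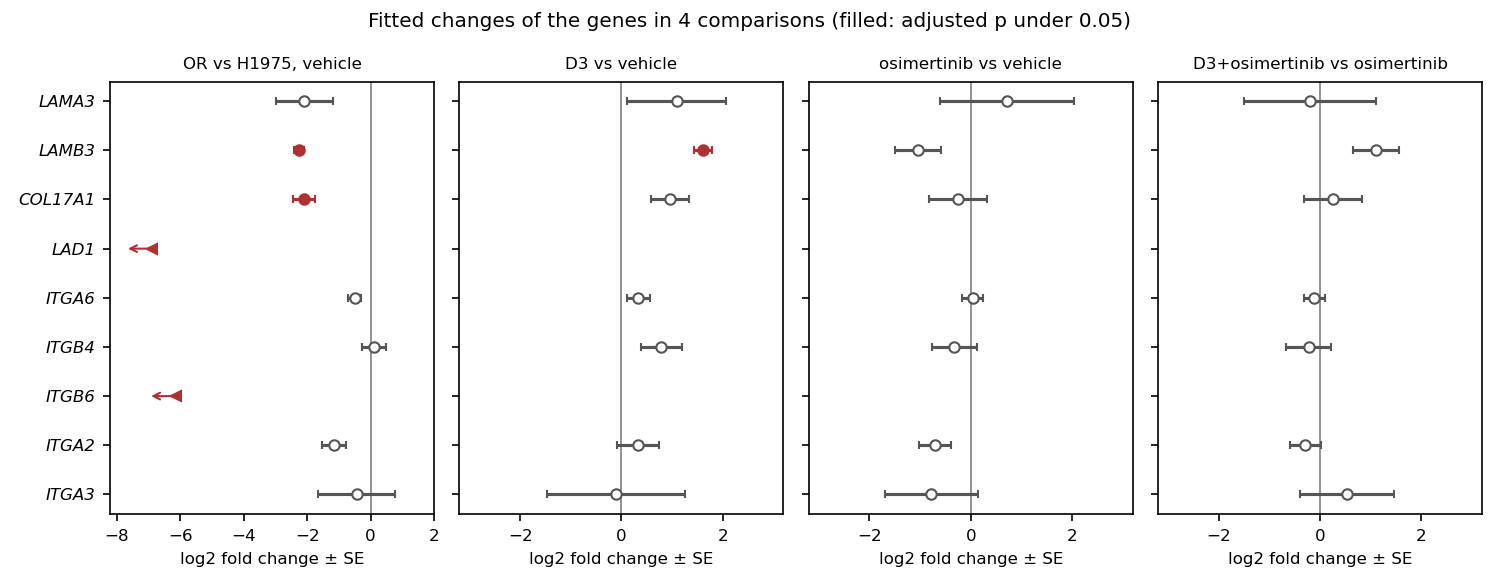
Log2 fold change with its standard error (x axis) of the 9 genes (y axis) in 4 comparisons, filled where the adjusted p was under 0.05. For LAD1 and ITGB6 the arrows in the first panel start at the bound of at least 117-fold and 70.7-fold lower, and these genes are not drawn elsewhere because all H1975–OR libraries were near or at 0.

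Osimertinib was then compared with vehicle in H1975–OR to compare resistant cells held in the drug with resistant cells held without it. In this and the following comparisons 7 of the 9 genes were tested among 12503, because LAD1 and ITGB6 did not pass the filter on low counts. None of the 7 was called by edgeR or by DESeq2, with 0 higher and 2 lower at an unadjusted p under 0.05, beside 3.9% of all genes lower. Over all genes 0.048% were called. LAMB3 was measured at 79.0, 35.8 and 26.8 CPM with osimertinib against 78.1, 108 and 107 CPM with vehicle (log2 fold change −1.04, SE 0.454, adjusted p = 0.651 by edgeR). Sample 4a was as high as Sample 2a, and Samples 4b and 4c lay well below their vehicle counterparts. ITGA2 was measured at 48.5, 39.3 and 43.9 CPM with osimertinib, overlapping with the vehicle range at Sample 2a (log2 fold change −0.71, SE 0.308, adjusted p = 0.649 by edgeR).

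In the same groups, the letters of the libraries paired them. The libraries of one letter deviated from their group means together, with correlations of 0.123 to 0.31 between vehicle and osimertinib, so each fit was also made with the letter as a block. The block raised the genes called for osimertinib against vehicle from 6 to 35 (0.28%), but none of the 7 members was called. LAMB3 then had an adjusted p of 0.196 by edgeR.

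Adding 1,25(OH)2D3 to osimertinib was read against osimertinib alone. LAMB3 was measured at 175, 71.4 and 59.8 CPM with both agents. Within each letter, this was 2.18, 1.94 and 2.15 times the osimertinib value on the CPM + 2 scale, so the ratios were close although the levels of letter a were higher. Without the block the log2 fold change was 1.10 (SE 0.455, adjusted p = 1 by edgeR), and with it 1.09 (SE 0.362, adjusted p = 0.461). None of the 7 genes was called by edgeR or DESeq2, and edgeR called 12 of all genes without the block and 33 with it. The shares of all genes were 0.096% without the block and 0.264% with it. At an unadjusted p under 0.05, 1 of the 7 was higher, beside 2.07% of all genes, and 0 were lower.

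The average of the 1,25(OH)2D3 effects without and with osimertinib was 1.36 for LAMB3 on the log2 scale (SE 0.333, adjusted p = 0.183 by edgeR), and 1.45 with the letter as a block (SE 0.264, adjusted p = 0.0426), where it passed the test. The 1,25(OH)2D3 libraries deviated with the same-lettered libraries of the other H1975–OR groups only weakly, with correlations across genes of −0.000889 to 0.154 for letters b and c. Without the block, 0.368% of all genes passed, and 1.34% with it. The effect of 1,25(OH)2D3 in the presence of osimertinib minus that in its absence was −0.51 for LAMB3 (SE 0.666, adjusted p = 1 by edgeR), so the 2 effects could not be told apart at this spread. No gene of the 12503 (0%) was called for that difference by edgeR, beside 2 higher and 9 lower by DESeq2. At an unadjusted p under 0.05 by edgeR, 153 (1.22%) were higher and 177 (1.42%) lower. Against vehicle, LAMB3 with both agents had a log2 fold change of 0.07 (SE 0.445), and its mean of 102 CPM overlapped with vehicle.

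**Figure D4:**
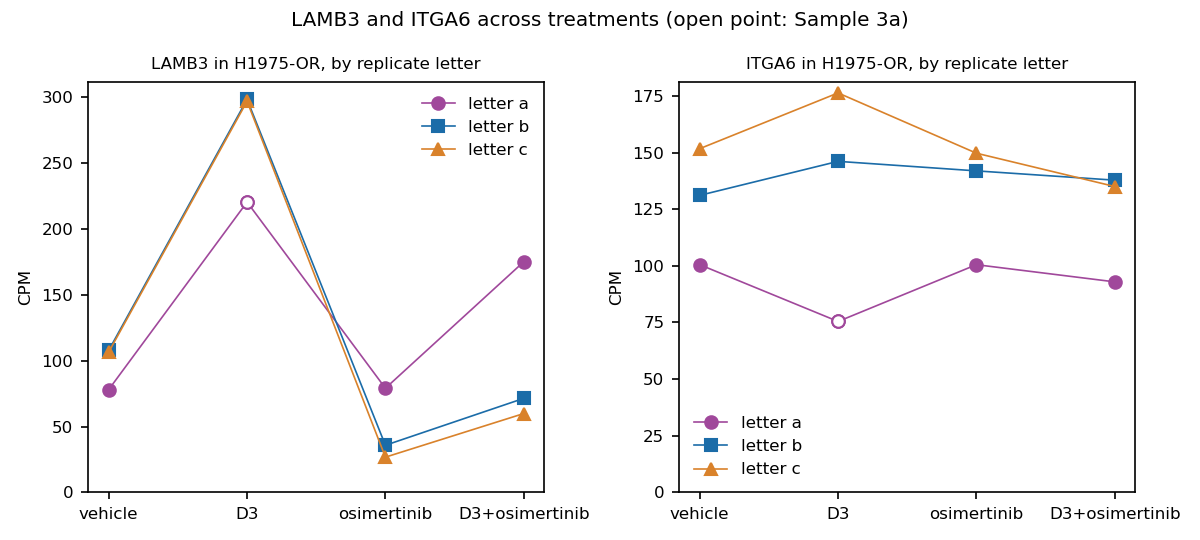
CPM of LAMB3 and ITGA6 (y axes, from 0) in H1975–OR under 4 treatments (x axes), with a line for each replicate letter and an open point for Sample 3a. In LAMB3 the value with both agents lies above that with osimertinib for every letter, and ITGA6 of letter a lies below letters b and c under each treatment.

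Both agents together were also compared with vehicle. None of the 7 genes was called by edgeR or DESeq2 (0 higher and 1 lower at an unadjusted p under 0.05, beside 6.09% of all genes lower). Of all genes, 0.496% were called, or 3.69% with the letter as a block. ITGA2 was measured at 50.7, 30.1 and 27.6 CPM with both agents against 46.0, 70.8 and 98.6 CPM with vehicle (log2 fold change −0.99, SE 0.311, adjusted p = 0.231 by edgeR). Samples 5b and 5c lay below every vehicle library, and Sample 5a did not. The collagen IV gene COL4A3 was the one gene of the 4 lists called in this comparison, at 27.6, 55.2 and 58.2 CPM against 6.13, 2.69 and 5.20 CPM (log2 fold change 3.31, SE 0.562, adjusted p = 0.0398 by edgeR). COL4A4, which lies head to head with COL4A3, had a log2 fold change of 2.93 (SE 0.575, adjusted p = 0.0677), and with the block it passed (0.0231).

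The hemidesmosomal integrin pair showed no called change with osimertinib. ITGB4 lay at 28.3, 88.1 and 65.2 CPM with osimertinib and at 45.5, 67.8 and 42.9 CPM with both agents, overlapping with the vehicle range of 32.3 to 98.6 CPM. ITGA6 lay at 101, 142 and 150 CPM and at 92.9, 138 and 135 CPM. Letter a was the lowest in all 4 H1975–OR groups, Sample 3a included. COL17A1 was at 4.56, 4.29 and 5.92 CPM with osimertinib and at 1.402, 8.69 and 7.77 CPM with both agents. LAMA3 ranged from 4.75 to 21.1 CPM and from 0 to 27.0 CPM, and ITGA3 from 0.57 to 4.91 CPM and from 2.11 to 5.42 CPM. The 0 of LAMA3 in Sample 5b was an estimate of 1.45e-12 reads.

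LAD1 had 7, 0 and 4 counts with osimertinib and 3, 0 and 0 with both agents, or at most 1.33 CPM. No fold is given among the H1975–OR groups, since most of their libraries were at or under the floor. ITGB6 stayed at 0 counts throughout.

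Ordered by their means, the groups kept H1975 first for 8 of the 9 genes, ITGB4 being the exception. LAD1 and ITGB6 are among the 8 and passed the filter only through H1975. The share of all genes with H1975 first is not given, so this count is not a result about the 9. For LAMB3 the order was H1975, 1,25(OH)2D3, both agents, vehicle and osimertinib, at 471, 298, 102, 97.4 and 47.2 CPM, and the last 3 groups overlapped with their neighbors in that order. COL17A1 followed a similar order, at 25.4, 11.3, 5.95, 5.87 and 4.93 CPM, with H1975 alone standing clear of its neighbor. For LAMA3, ITGA2, ITGA3 and ITGA6 every group overlapped with its neighbor in the order. For ITGB4, the 1,25(OH)2D3 group at 131 CPM stood above vehicle at 75.8 CPM without overlap, and the H1975 mean of 71.4 CPM came after it.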

How the data were processed

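The authors prepared stranded total RNA libraries, sequenced them on a NextSeq500, quantified hg38 transcripts with Kallisto, and obtained gene values through tximport. The submitters' processing notes name kallisto 0.43.0, STAR 2.5.2b and CASAVA 1.8.2. The deposited values are these estimated counts, unscaled for depth or length. The transcript annotation is not given in the sources used here.

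Expected counts were rounded. The filter was filterByExpr of edgeR 4.0.16 (R 4.3.3) with a minimum count of 10 and total of 15, followed by TMM scaling and the quasi-likelihood test of edgeR, with Benjamini-Hochberg adjustment and a threshold of 0.05. H1975–OR against H1975 and 1,25(OH)2D3 against vehicle used one fit of 8 libraries, and comparisons with osimertinib used the 11 H1975–OR libraries, both without Sample 3a, as in the study. p-values measure the spread between passages of one line each. The letters were used as a block only in an alternative, since same-lettered libraries of vehicle, osimertinib and both agents deviated together (correlations 0.118 to 0.462), those of 1,25(OH)2D3 did so weakly (−0.000889 to 0.154), and those of H1975 and vehicle-treated H1975–OR did not (−0.03 to 0.0207).

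The 9 genes and the lists were chosen with earlier results of these data known. Named genes are the 9, up to 4 called genes per list and comparison with the largest change, CYP24A1, the markers and the 3 closest profiles, apart from LAMB2, ITGAV, ITGB1 and COL4A4 in the comparison of both agents, which were chosen after their values were seen. Alternatives were RLE size factors, DESeq2 1.42.0, other filters, Sample 3a kept in, the block, other sets of libraries and each library left out in turn. One listed gene is not reported here. Coordinates are from GENCODE on GRCh38.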

Additional observations from a re-analysis of the deposited data

Results flagged for a closer look

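Sample 3a, which was left out of the main comparisons, lay above every vehicle-treated H1975–OR library for LAMB3 and ITGB4 among the genes above the floor of 3 counts. LAMB3 was at 220.3 CPM in it, where the highest vehicle-treated library had 107.8 CPM. ITGB4 was at 121.7 CPM, where the highest vehicle-treated library had 98.58 CPM. LAD1 was at the floor, with 3 counts beside 0 in the vehicle-treated libraries. For ITGA2 (38.91 CPM), ITGA6 (75.44 CPM) and COL17A1 (3.494 CPM), Sample 3a lay below every vehicle-treated library, the lowest of which had 45.97, 100.5 and 3.678 CPM.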

How the results depend on the processing

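Of 256 recomputed log2 fold changes, 233 kept their direction and their side of the threshold, 8 crossed to a call, 5 lost one and 10 reversed. The 4 calls against H1975 held wherever the genes were tested. ITGA2 was also called in 5 of 13 alternatives (adjusted p 0.00437 to 0.19), the replicate block among them, and ITGA6 in 1. For 1,25(OH)2D3 against vehicle, the call of LAMB3 was lost with 14 libraries in one fit, in the 11 H1975–OR libraries, and in those with the replicate block, an alternative chosen after seeing the data (0 members called in each), and the count ranged from 0 to 1 when libraries were left out, with adjusted p from 1.12e-13 to 0.603 over all alternatives. For its average effect, 1 member was called with DESeq2 and 1 with the replicate block. Reversals were in uncalled values and their cause was not tested. ITGA3 against H1975 ranged from −1.41 to 0.24 and ITGB4 from −0.13 to 0.45 when libraries were left out, and ITGB4 was −0.019 with the replicate block. LAMB3 with both agents against vehicle was −0.16 with the block and −0.57 to 0.34 leaving libraries out. The difference of its 1,25(OH)2D3 effects ranged from −1.15 to 0.080 when libraries were left out. Over all genes, DESeq2 called 79 higher and 45 lower for 1,25(OH)2D3 against vehicle, beside 19 and 0 by edgeR. Its counts were 61 and 56 beside 4 and 2 for osimertinib against vehicle, 46 and 20 beside 7 and 5 for both agents against osimertinib, 230 and 134 beside 48 and 14 for both against vehicle, 126 and 71 beside 42 and 4 for the average effect, and 2 and 9 beside 0 and 0 for the difference of effects. The depth allows no level under about 0.477 to 0.707 CPM to be told from 0.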
